A study of Mus musculus with 18 samples.

Results

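The proline tRNAs of mouse brain were followed through 3 kinds of RNA library, in Ftsj1 knockout (KO) and wild-type (WT) mice. They were taken as every row of the count table whose tRNA name, without its trailing number, is Pro. There were 6 such rows of 147, and they fell into 3 anticodon families of 54: AGG (rows Pro1, Pro2 and Pro3), GGG (row Pro4) and TGG (rows Pro5 and Pro7). Rows are written here with their anticodon, as in Pro1-AGG, and a family is the sum of its rows, as in Pro-AGG. No row is named Pro6, and no proline row has the anticodon CGG. The brains came from 3 KO and 3 WT males of the C57BL/6 strain, 8 weeks old and untreated, and each mouse gave 3 libraries, 18 in all. Ribosome-contained tRNA was recovered after ribosome profiling, and tRNA fragments and total (full-sized) tRNA were cut from gels of total brain RNA. The design of the knockout allele is not given in the sources used here.

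Proline tRNA brings proline to the ribosome at codons that begin with CC. In animals the A at the first, or wobble, position of the AGG anticodon is deaminated to inosine, which pairs with U, C or A in the codon, and reverse transcriptase reads inosine as G. The TGG anticodon (UGG in RNA) has a wobble uridine and reads codons ending in A or G, and a CGG anticodon reads codons ending in G. FTSJ1, the enzyme removed in the KO mice, places methyl groups on riboses of the anticodon loop in a set of tRNAs, of which tRNA-Phe is the best known, and its human gene is associated with an X-linked form of intellectual disability. The RefSeq gene table for mouse assembly GRCm38.p6 names 16 proline tRNA genes, 6 of them AGG, 7 TGG and 3 CGG, with no entry for GGG, and it was used for names alone.

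Fragment libraries held 85323 to 151056 tRNA reads, ribosome-contained libraries 406764 to 672127, and total tRNA libraries 1505291 to 2000422. A share is a percentage of all tRNA reads of a library, or of its proline tRNA reads where stated, so every value is relative to other tRNA. Reads carry no molecular identifiers, and the intervals and floors given here cover counting error only. In bulk brain, fewer cells of a type and less RNA per cell cannot be told apart. Ftsj1 mRNA and brain marker genes lie outside tRNA libraries, so neither the knockout nor the tissue was checked here. How the counting treated reads that match several tRNAs, or an inosine read as G, is not given in the sources used here, so the assignment of reads among proline rows with similar bodies is uncertain.

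Nearly all proline tRNA reads were counted in a single row. Pro1-AGG held 62000, 49247 and 59054 reads in KO total tRNA, against 45826, 47817 and 46443 reads in WT total tRNA. The most abundant of the other 5 rows, Pro5-TGG, had 104 to 118 reads in KO and 61 to 81 in WT total tRNA. Within proline tRNA, Pro-AGG made up 99.6% ± 0.0703 of reads in KO and 99.7% ± 0.0575 in WT total tRNA (SD, n = 3 mice each). Pro-TGG made up 0.302% ± 0.0210 in KO and 0.230% ± 0.0373 in WT, and Pro-GGG 0.0973% ± 0.0572 in KO and 0.0369% ± 0.0203 in WT. By mean share of total tRNA, Pro-AGG ranked 9 in KO and 10 in WT among 54 families. Pro-TGG ranked 47 in both genotypes, and Pro-GGG 48 in KO and 49 in WT.

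Fragments of Pro-AGG were more abundant in KO brain. They made up 2.28%, 2.31% and 2.30% of fragment reads in the KO mice, against 1.68%, 1.87% and 1.77% in the WT mice. The genotypes did not overlap, the KO values lay close together, and the mean was 1.30-fold higher in KO (exact permutation p = 0.1, two-sided, the smallest that 3 mice against 3 can give). The log2 fold change was 0.37 (SE 0.06, edgeR quasi-likelihood adjusted p = 5.3e-06), and the family stayed past the threshold of 0.05 under all 11 alternative settings tried. It was the 1 proline family of 3 with enough fragment reads to be tested. Of all families tested among fragments, 26.1% were called and 17.4% had shares higher in every KO than in every WT library. The row behind it was Pro1-AGG, with 3437, 2188 and 3429 reads in KO and 1908, 1595 and 1843 in WT fragment libraries. As a row it rose by the same log2 value, 0.37 (SE 0.06, edgeR adjusted p = 9.3e-04), with 12.3% of all rows called. The other 5 rows had too few fragment reads to pass the filter on low counts.

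**Figure D1:**
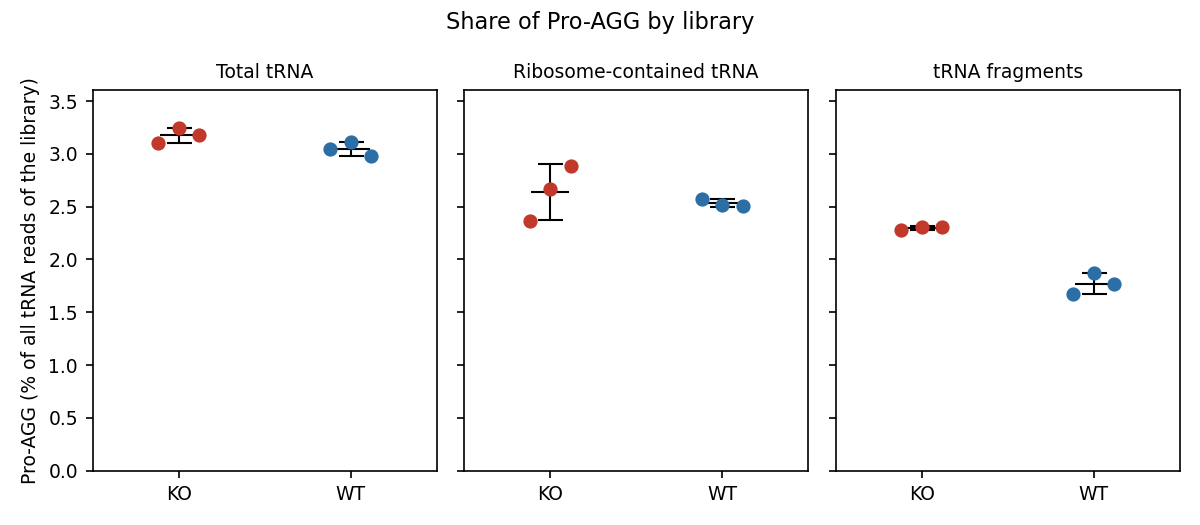
Share of Pro-AGG among all tRNA reads of a library, in percent, for each mouse (points), with the mean and SD (n = 3 mice) of KO (left) and WT (right) in each kind of library. KO and WT points are apart among fragments, at 2.28% to 2.31% in KO and 1.68% to 1.87% in WT, and overlap in the other kinds.

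Intact Pro-AGG was not called between genotypes. Its share of total tRNA was 3.10%, 3.25% and 3.18% in KO mice, against 3.04%, 3.11% and 2.98% in WT mice. These ranges overlapped (means 3.17% ± 0.0728 in KO and 3.04% ± 0.0661 in WT, SD; exact permutation p = 0.2, n = 3 each). The log2 fold change was 0.03 (SE 0.06, edgeR adjusted p = 0.827). In ribosomes the share was 2.36%, 2.66% and 2.89% in KO mice, against 2.58%, 2.52% and 2.50% in WT mice. The KO mice lay on both sides of the WT mice, and the log2 fold change was 0.06 (SE 0.09, edgeR adjusted p = 0.633). Pro1-AGG alone likewise passed in neither, with -0.04 (SE 0.08, adjusted p = 0.770) in total tRNA and 0.10 (SE 0.13, adjusted p = 0.712) in ribosomes in edgeR.

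The difference between these effects was tested as well. Per mouse, the fragment share of Pro-AGG divided by its total share was 0.724 ± 0.0115 in KO and 0.582 ± 0.0275 in WT (SD, n = 3 each; exact permutation p = 0.1). The KO effect in fragments exceeded that in total tRNA by 0.22 on the log2 scale (SE 0.07, edgeR quasi-likelihood adjusted p = 0.0305), while the median of all families was -0.19. Over the 11 alternatives the difference for Pro-AGG lay between 0.19 and 0.31. Among all families 32.7% were called in this test, and Pro-AGG was not once the mouse was fitted as a block (adjusted p = 0.0693). It was called under 4 of 11 alternatives, and not with DESeq2 (adjusted p = 0.108), with DESeq2's size factors (0.109), or without KO mouse 1 (0.0850), KO mouse 2 (0.0759), WT mouse 1 (0.0878) or WT mouse 3 (0.0663). For the row Pro1-AGG the difference was 0.48 (SE 0.11, edgeR adjusted p = 0.0041), where 8.57% of rows were called and the median of all rows was 0.06. It was 0.31 with scaling by total reads. Pro1-AGG held nearly all reads of the family, so the family and row values rest on nearly the same reads, scaled in separate fits. Without KO mouse 3 the row was not called (0.28, adjusted p = 0.136). In ribosomes the share divided by the total share was 0.830 ± 0.0741 in KO and 0.832 ± 0.0194 in WT mice (SD, n = 3 each; exact permutation p = 1). No proline family or row was called for a difference of the KO effect between ribosome-contained and total tRNA (Pro-AGG 0.07, SE 0.14, edgeR adjusted p = 0.831). Of all families 0% were called there (0 of 51 in edgeR, 11 at an unadjusted p under 0.05), and 5.93% of all rows.

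**Figure D2:**
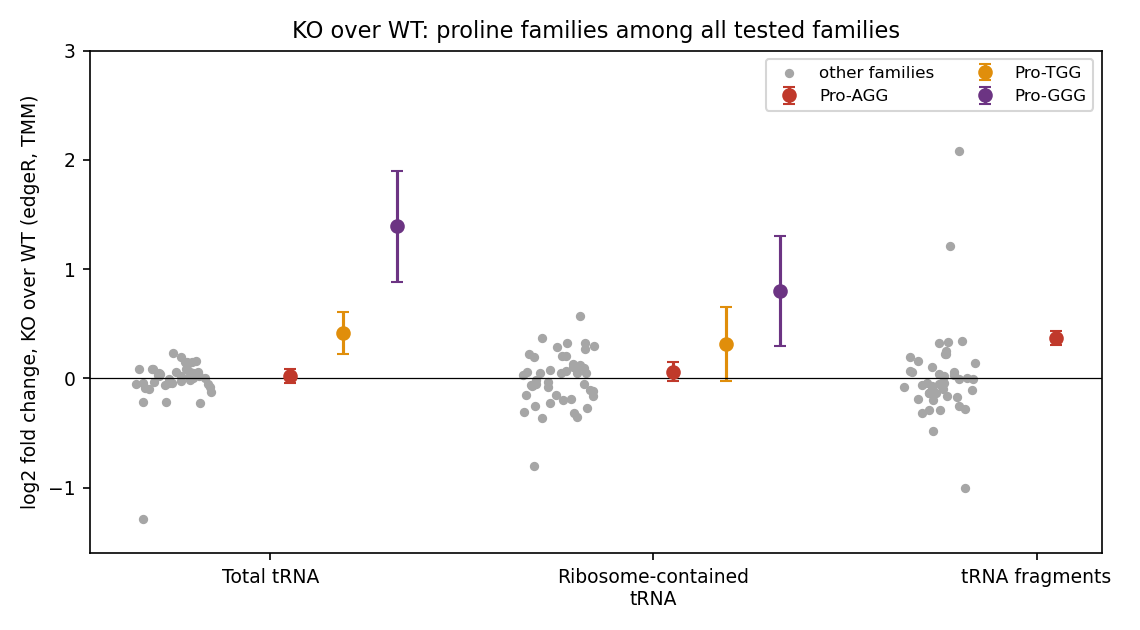
Log2 fold change of KO over WT in edgeR for each anticodon family tested, in each kind of library. Coloured points are proline families with their SE, and grey points are the other families. Pro-AGG lies at 0.03 in total tRNA, 0.06 in ribosomes and 0.37 among fragments, and Pro-GGG at 1.39 in total tRNA with an SE of 0.51.

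Across library kinds, proline tRNA took a smaller share of ribosome-contained and fragment reads than of total tRNA reads. All proline rows together were 2.66% ± 0.270 of ribosome-contained reads in KO and 2.55% ± 0.0351 in WT, and 3.19% ± 0.0750 of total reads in KO and 3.05% ± 0.0655 in WT (SD, n = 3 mice each). The share in ribosomes was below that in total tRNA in 6 of 6 mice, by a mean of -0.517 percentage points (exact paired permutation p = 0.03125, the smallest that 6 pairs can give; adjusted p = 0.0417 over 8 such tests). The 8 include the test of Pro-GGG among fragments, whose outcome was fixed in advance by its lack of reads, and the adjusted values depend on it. Fragments were lower too, in 6 of 6 mice, by a mean of -1.08 percentage points (exact paired permutation p = 0.03125, adjusted p = 0.0417). In the edgeR contrast of WT libraries, Pro-AGG was lower in ribosomes by a log2 value of -0.32 (SE 0.10, adjusted p = 0.0033), around a median of 0.06 for all families. Its log2 difference of fragments from total tRNA in WT was -0.51 (SE 0.05, edgeR adjusted p = 9.8e-08), close to the median of -0.46 for all families, and lay between -0.78 and -0.19 over the alternatives. Most families were called in both comparisons, 74.5% for ribosomes, with 2 proline families among them, and 85.7% for fragments, with 1 proline family.

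Few reads were counted to Pro-TGG, the wobble uridine isoacceptor, and it made up more of the proline reads in ribosomes than in total tRNA. Whether reads of TGG genes were counted in other proline rows is not known from the sources used here. Pro-TGG had 70, 84 and 104 reads in KO and 45, 99 and 81 in WT ribosome-contained libraries. In total tRNA it had 177, 161 and 176 reads in KO and 88, 112 and 124 in WT. Its share of proline reads in ribosomes was 0.439%, 0.768% and 0.709% in KO mice and 0.353%, 0.727% and 0.511% in WT mice. Each mouse had a higher value in ribosomes than in total tRNA, by a mean of 0.318 percentage points (6 of 6 mice, exact paired permutation p = 0.03125, adjusted p = 0.0417). Over all mice the ratio of its share of proline reads in ribosomes to that in total tRNA was 2.14 (95% exact counting interval 1.91 to 2.40). The ratios of single mice spread more widely, from 1.54 to 3.12. In edgeR the log2 difference in WT was 0.90 (SE 0.26, adjusted p = 0.0018), and without WT mouse 2 it was 0.54 and not called (adjusted p = 0.167). Both TGG rows took part, with ratios of 2.31 (2.01 to 2.65) for Pro5-TGG and 1.82 (1.48 to 2.24) for Pro7-TGG. As single rows, scaled in a separate fit, neither passed in edgeR (Pro5-TGG 0.51, SE 0.33, adjusted p = 0.148; Pro7-TGG 0.44, SE 0.36, adjusted p = 0.255). Of the 11 alternatives, each passed only with scaling by total reads (edgeR adjusted p = 0.0200 for Pro5-TGG and 0.0447 for Pro7-TGG).

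Scarce rows of other amino acids were also higher in ribosomes. Among the 61 rows of other amino acids with under 150 reads in every total tRNA library, a limit chosen after the values were seen, 56 had a higher mean share in ribosomes than in total tRNA. Their median ratio was 2.94, against 1.07 in the 81 rows above the limit. The limit was set on total tRNA reads, the denominator of this ratio, so the choice of rows can itself raise it. On the same measure the scarce proline rows had ratios of 3.88 (Pro2-AGG), 3.11 (Pro3-AGG), 1.21 (Pro4-GGG), 2.01 (Pro5-TGG) and 1.53 (Pro7-TGG), while Pro1-AGG was at 0.830. Whether the scarcity of a row bears on its ratio was not tested.

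In total tRNA the TGG family was somewhat higher in KO mice, without a call. Its share of proline reads was 0.284%, 0.325% and 0.296% in KO mice, against 0.192%, 0.234% and 0.266% in WT mice. The genotypes did not overlap (exact permutation p = 0.1, n = 3 mice each; adjusted p = 0.367 over 11 such tests). Its share of all tRNA reads did not overlap either, at a mean of 0.00964% in KO and 0.00703% in WT, as in 14.3% of families for shares higher in KO. The log2 fold change was 0.41 (SE 0.19, edgeR adjusted p = 0.190). Of its rows Pro5-TGG had 118, 104 and 109 reads in KO and 61, 81 and 77 in WT total tRNA, with shares that did not overlap, as in 25.7% of rows for shares higher in KO. Its log2 fold change was 0.28 (SE 0.24, edgeR adjusted p = 0.440), and that of Pro7-TGG, with 59, 57 and 67 reads in KO and 27, 31 and 47 in WT, was 0.49 (SE 0.31, adjusted p = 0.308). In ribosomes the TGG family was at 0.32 (SE 0.34, edgeR adjusted p = 0.565), and KO and WT mice overlapped.

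**Figure D3:**
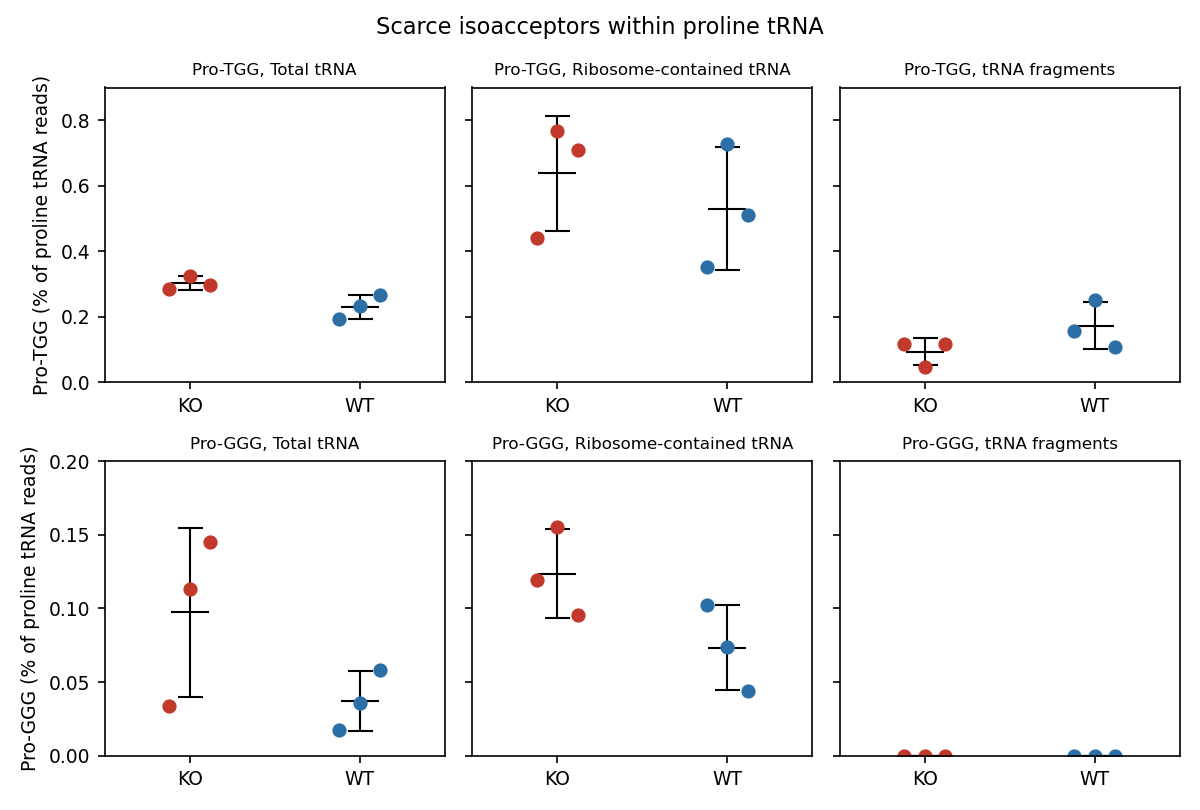
Share of Pro-TGG (top) and Pro-GGG (bottom) among proline tRNA reads, in percent, for each mouse (points), with the mean and SD (n = 3 mice) of KO (left) and WT (right). Pro-TGG is at 0.353% to 0.768% in ribosomes and at 0.192% to 0.325% in total tRNA, and Pro-GGG has no reads among fragments.

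Fragments of the TGG family came almost wholly from one of its rows. Pro7-TGG had 4, 1 and 3 fragment reads in KO and 3, 3 and 2 in WT libraries, whereas Pro5-TGG had 0, 0 and 1 in KO and 0, 1 and 0 in WT. In total tRNA the order was the reverse, and Pro7-TGG was 35.6% ± 2.37 of TGG reads in KO and 32.1% ± 5.26 in WT (SD, n = 3 mice each). Its share among TGG fragments was above that in total tRNA in 6 of 6 mice, by a mean of 57.8 percentage points (exact paired permutation p = 0.03125). This comparison was chosen after the values were seen, and each fragment library gave it only 1 to 4 reads. Had Pro5-TGG kept its total tRNA share of proline reads, 25.5 fragment reads would be due over all mice, and 2 were counted, a ratio of 0.0785 (exact counting interval 0.00949 to 0.285). For Pro7-TGG 13.3 would be due and 16 were counted, a ratio of 1.20 (0.677 to 1.98). In WT, edgeR called Pro5-TGG lower among fragments than in total tRNA (adjusted p = 2.7e-04) and did not call Pro7-TGG (adjusted p = 0.991). Pro5-TGG and Pro1-AGG were the 2 proline rows called there, with 80.0% of all rows called, and Pro1-AGG was at -0.98 (SE 0.08, adjusted p = 1.8e-10), around a median of -0.60 for all rows. As a family, Pro-TGG, with 9 fragment reads in WT, was at -0.97 among WT fragments (SE 0.52, edgeR adjusted p = 0.0934), and the ratio of its share of proline reads was 0.729 (0.330 to 1.40). With the mouse as a block it passed (-0.96, adjusted p = 0.0319), as did Pro-GGG (adjusted p = 0.0229), which made 3 proline families called with the block. Pro-GGG had 0 reads in every fragment library, so its call rests on no counted fragment.

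**Figure D4:**
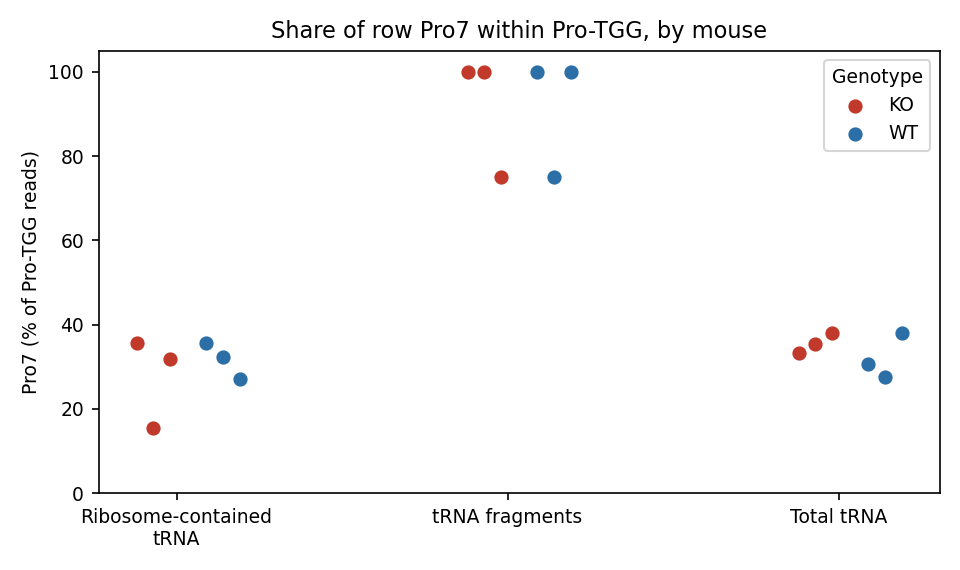
Reads of row Pro7 as a percentage of Pro-TGG reads, for each KO and WT mouse, in ribosome-contained tRNA, tRNA fragments and total tRNA. Fragment points lie at 75% or 100% and rest on 1 to 4 reads each, and total tRNA points lie between 27.7% and 38.1%.

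Pro-GGG, whose only row is Pro4-GGG, had the fewest reads of the 3 proline families. With no GGG gene named in RefSeq and inosine read as G, whether its reads come from a separate tRNA was not tested. Pro-GGG had 21, 56 and 86 reads in KO and 8, 17 and 27 in WT total tRNA. KO mouse 1 lay within the WT range by share of proline reads, at 0.0338% (95% Wilson interval 0.0221% to 0.0516%), and the other KO mice, at 0.113% and 0.145%, lay above it. The WT mice had 0.0174%, 0.0354% and 0.0579%. The exact permutation test of the means gave p = 0.3 (n = 3 mice each), and as a family Pro-GGG was not called (log2 fold change 1.39, SE 0.51, edgeR adjusted p = 0.0764). In the fit of single rows, Pro4-GGG was called (1.34, SE 0.38, edgeR adjusted p = 0.0051), the 1 proline row called in total tRNA, where 17.8% of rows and 8.16% of families were called. The call held under 5 of 11 alternatives. It was lost with DESeq2 (adjusted p = 0.0653), with DESeq2's size factors (0.0632), and without WT mouse 1 (0.127), WT mouse 2 (0.184), KO mouse 2 (0.198) or KO mouse 3 (0.366).

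Other scarce rows were likewise higher in KO total tRNA. Of the 61 scarce rows of other amino acids, 53 had a higher mean share in KO than in WT, with a median ratio of 1.56 and quartiles of 1.07 and 2.37. In the 81 rows above the limit the median ratio was 1.05, with 60 above 1. The scarce proline rows had ratios of 2.44 (Pro2-AGG), 2.15 (Pro3-AGG), 2.78 (Pro4-GGG), 1.31 (Pro5-TGG) and 1.51 (Pro7-TGG). In ribosomes the median ratio of KO to WT over those 61 rows was 0.892, with 20 above 1. There the scarce proline rows had ratios of 1.08 (Pro2-AGG), 1.07 (Pro3-AGG), 1.74 (Pro4-GGG), 1.38 (Pro5-TGG) and 1.06 (Pro7-TGG). The part of scarcity in the proline values was not tested.

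In ribosomes Pro-GGG had 19, 17 and 14 reads in KO and 13, 10 and 7 in WT libraries. Its share of all tRNA reads did not overlap between genotypes, with means of 0.00326% in KO and 0.00187% in WT (exact permutation p = 0.1, n = 3 mice each), as in 22.4% of families and 13.6% of rows for shares higher in KO. Its share of proline reads did overlap, and the family was not called (0.80, SE 0.50, edgeR adjusted p = 0.346). None of the 3 proline families and none of the proline rows tested was called between KO and WT ribosomes, where 22.4% of families and 3.88% of rows were called in edgeR. Set against total tRNA, the ratio of its share of proline reads in ribosomes was 1.38 (95% exact counting interval 1.06 to 1.80), with 4 of 6 mice higher (exact paired permutation p = 0.25). Among fragments it had 0 of 9071 proline reads in KO, which allows up to 0.0331%, and 0 of 5355 in WT, which allows up to 0.0560%. At its share in total tRNA 8.64 reads would be due in KO and 1.98 in WT. With a floor of 3 reads over the libraries of a group, the KO fragment share was at least 2.88-fold lower than in total tRNA. By the same floor, the WT libraries were too shallow to show a difference. Over both genotypes the bound was 3.32-fold, and 1.87-fold without KO mouse 3. Its paired permutation test was among the 8 adjusted together but is not read as a result, since 0 reads in every fragment library fix the sign.

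The minor AGG rows were close to the limit of detection. Pro2-AGG had 5, 5 and 10 reads in KO and 2, 4 and 1 in WT total tRNA, 5, 1 and 11 in KO and 7, 3 and 6 in WT ribosomes, and none among fragments. Pro3-AGG had 13, 23 and 35 reads in KO and 3, 13 and 13 in WT total tRNA, and 14, 6 and 30 in KO and 15, 23 and 10 in WT ribosomes. Its log2 fold change in total tRNA was 0.97 (SE 0.53, edgeR adjusted p = 0.212). Both were higher in WT ribosomes than in WT total tRNA, Pro2-AGG by 2.15 (SE 0.75, edgeR adjusted p = 0.0103) and Pro3-AGG by 1.75 (SE 0.55, adjusted p = 0.0050). These rest on few reads, and the ratios of their pooled shares of WT proline reads were 7.61 (95% exact counting interval 2.96 to 21.9) and 5.51 (3.40 to 9.06). Pro1-AGG was lower there (-0.71, SE 0.10, adjusted p = 1.1e-07; median of all rows 0.14, and -0.27 for Pro1-AGG with scaling by total reads), and these were the 3 proline rows called, with 80.5% of all rows called. Without WT mouse 1 (adjusted p = 0.101) or WT mouse 3 (0.0788) Pro2-AGG was not called. All 8 fragment reads of Pro3-AGG, 3, 2 and 3, came from KO mice, and the WT libraries had 0 of 5355 proline reads, which allows up to 0.0560%, against 0.0886% ± 0.00235 of proline reads in KO (SD, n = 3). The shares did not overlap (exact permutation p = 0.1), as in 16.0% of the rows that passed the filter on low counts, which Pro3-AGG did not. With no filter it was tested and not called (edgeR adjusted p = 0.0543).

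Proline families were set beside families for alanine, arginine, leucine, serine, threonine and valine, which like proline have a box of 4 codons sharing their opening pair of bases. Of 7 families with a wobble A, 2 rose and 1 fell among KO fragments, with a median log2 fold change of 0.04 against -0.04 for all 46 families tested, of which 26.1% were called. Beside Pro-AGG, Ala-AGC rose (0.33, SE 0.07, edgeR adjusted p = 1.6e-04) and Ser-AGA fell (-1.01, SE 0.17, adjusted p = 2.5e-06). Of 6 families with a wobble C 2 rose and none fell (median 0.04), and of 7 with a wobble T none of the 6 tested was called, Pro-TGG being too scarce to be tested (median -0.0031). In WT ribosomes, set against WT total tRNA, 4 wobble A families were higher and 3 lower, Pro-AGG among the lower. Of 7 wobble T families 1 was higher, Pro-TGG, and 3 were lower (median -0.14, all families 0.06). Of all families 74.5% were called in that comparison. Leu-CAA, Glu-TTC and Ile-TAT followed Pro-AGG most closely across the 18 libraries, with mean absolute log2 differences of 0.198, 0.203 and 0.231 after each was centred on its own mean. The median over the 45 families of other amino acids with at least 10 reads in every library was 0.698. They did not all share its changes. Mean fragment shares in KO and WT were 0.436% and 0.381% for Leu-CAA, 1.10% and 1.25% for Glu-TTC, and 0.428% and 0.468% for Ile-TAT. Mean WT shares in ribosomes and total tRNA were 0.493% and 0.461% for Leu-CAA, 2.03% and 2.08% for Glu-TTC, and 0.449% and 0.663% for Ile-TAT.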

How the data were processed

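Per the file headers, the authors deposited sequenced read numbers, counts per tRNA row, in 1 table of 147 rows and 18 library columns. The submitters' processing notes name Bowtie2. For it no version or settings, and likewise no tRNA reference, genome build or handling of multiply matching reads, is given in the sources used here. Per the labels' protocols, RNA was treated with AlkB, which removes some base methylations that block reverse transcription, and a 3′ adaptor was ligated. A column headed K3 was taken as KO mouse 3.

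Counts were tested over the whole table, as 54 anticodon families and as 147 rows, with edgeR 4.0.16 in R 4.3.3 (TMM scaling, filterByExpr with a minimum count of 10, quasi-likelihood test, Benjamini-Hochberg adjustment, threshold 0.05). Genotypes were compared within each kind of library over 6 libraries, and kinds of library in fits over 12 libraries. Families and rows were scaled in separate fits, so log2 values of a family and of its rows are not on the same scale. For shares, exact permutation tests (two-sided, SciPy 1.17.1) were used, flipping signs by mouse between kinds of library. No spike-in was used here, so a change is relative to other tRNA. P-values of the permutation tests and of fits within a kind of library measure the spread between mice as labelled. Fits over 12 libraries took the libraries of a mouse as independent, except with the mouse as a block. The alternatives were DESeq2 1.42.0, its size factors, scaling by total reads, no filter, a block for the replicate number or the mouse, leaving out each mouse, a denominator without Phe-GAA, and log2 shares. Libraries were paired by mouse, as labelled, in permutation tests between kinds of library and in fits with the mouse as a block. Deviations of a mouse's ribosome-contained and total libraries from their group means correlated at -0.338 to 0.637. Those of its fragment and total libraries correlated at -0.137 to 0.320. Replicates differed beyond sampling noise in every pair. The fits were tested on simulated data.

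The proline tRNAs, the lists and the tests were chosen with earlier results of these data known. Every proline family and row is named, with the 3 families nearest in pattern to Pro-AGG by log2 share (percent + 0.001) and up to 2 other members of a list with the largest change. Counting ratios compare shares of proline reads pooled over mice.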

Additional observations from a re-analysis of the deposited data

Results flagged for a closer look

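The effect of the knockout differed between fragments and total tRNA for Pro-AGG, by 0.22 on the log2 scale (SE 0.07, edgeR quasi-likelihood adjusted p = 0.0305), and for its row Pro1-AGG by 0.48 (SE 0.11, adjusted p = 0.0041). Pro1-AGG held nearly all reads of Pro-AGG, so these are not separate effects, and the values came from fits scaled separately. The call of Pro-AGG held under 4 of 11 alternatives and was lost with the mouse as a block (adjusted p = 0.0693), with DESeq2 (0.108) and with its size factors (0.109), and that of Pro1-AGG was lost without KO mouse 3 (0.136). Among fragments Pro-AGG was higher in KO than in WT in every mouse, and in total tRNA the genotypes overlapped.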

How the results depend on the processing

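The rise of Pro-AGG among KO fragments was called under all 11 alternatives (adjusted p 2.5e-07 to 0.0022). The count of proline families called between KO and WT total tRNA, 0, lay between 0 and 1 when single mice were left out, and that of proline rows, 1, between 0 and 2, and was 0 with DESeq2 or its size factors. KO and WT mice share only a replicate number, and with that number as a block 2 proline families (Pro-GGG, adjusted p = 4.2e-09; Pro-TGG, 0.0230) and 2 rows were called in total tRNA, among 12.2% of all families and 24.8% of all rows. Deviations of same-numbered KO and WT libraries from their group means correlated at -0.482 to 0.106, and 0 of 6 libraries of each kind correlated best with its own number. Without KO mouse 1, Pro-GGG (adjusted p = 2.0e-04) and the rows Pro3-AGG (0.0236) and Pro4-GGG (7.4e-06) were called in total tRNA, where 9 of 50 families and 23.4% of all rows were called. Rows called between KO and WT ribosomes, 0, became 0 to 1 without single mice, the 1 being Pro1-AGG without KO mouse 1 (0.24, adjusted p = 0.04996; 22.6% of all rows called). For ribosomes over total tRNA in WT, proline families called were 1 to 2 without single mice, and proline rows 5 with total reads (80.5% of all rows). For fragments over total tRNA in WT, 2 families were called with total reads (83.7% of all families) and 3 with the mouse as a block (89.8%). For the difference of the KO effect between fragments and total tRNA, 0 families were called with DESeq2, its size factors or the mouse as a block (34.7%, 26.5% and 24.5% of all families), and 0 to 1 families and 0 to 1 rows without single mice.

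Values near 0 changed sign. Without single mice Pro-AGG lay between -0.0046 and 0.0484 (KO over WT, log2) in total tRNA, between -0.0148 and 0.150 in ribosomes, and between -0.0881 and 0.0246 for the difference of those effects. That difference was -0.0582 both with DESeq2 and with its size factors and -0.0026 with total reads. Pro1-AGG in total tRNA was at 0.0600 with total reads. Without single mice Pro-GGG in WT ribosomes over total tRNA lay between -0.10 and 1.35, and the KO minus WT share of all proline tRNA in ribosomes between -0.0178 and 0.251 percentage points.

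With 5 mice the paired permutation test cannot go below p = 0.0625. Without single mice, the share of proline tRNA differed from total tRNA by -0.564 to -0.473 points in ribosomes and by -1.13 to -1.03 among fragments. Within proline reads, Pro-AGG differed by -0.373 to -0.313 in ribosomes and 0.163 to 0.237 among fragments, Pro-TGG by 0.283 to 0.351 in ribosomes, and Pro-GGG by -0.0770 to -0.0515 among fragments, where its 0 reads fix the sign. The bound on its fragment share, over both genotypes, lay between 1.87-fold and 3.25-fold without single mice, an alternative chosen after seeing the data. Depth limits the minor rows: Pro2-AGG, Pro3-AGG, Pro4-GGG, Pro5-TGG and Pro7-TGG had 4 reads or fewer in every fragment library.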
